A study of Mus musculus with 6 samples.

Results

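The cyclic nucleotide phosphodiesterases described here are a set of 10 genes chosen by name, *Pde1c*, *Pde2a*, *Pde3a*, *Pde3b*, *Pde4a*, *Pde4b*, *Pde4d*, *Pde5a*, *Pde7a* and *Pde8a*. The table of normalized counts held 16448 genes and 9 of the 10 members; *Pde2a* was not analysed here. All 9 passed the filter on low values, which left 11364 genes tested. The samples were ventricular cardiomyocytes (CMs) of C57BL/6 mice aged 8 to 12 weeks, isolated by enzymatic digestion of the perfused heart followed by slow centrifugation, with 3 samples per genotype. CtrlCre mice carried the αMHC-Cre transgene with intact *Cpt1b* (αMHC-Cre pos/+;Cpt1b+/+). Cpt1bcKO mice carried the same transgene with both *Cpt1b* alleles floxed (αMHC-Cre pos/+;Cpt1b fl/fl). *Cpt1b* encodes the muscle carnitine palmitoyltransferase that admits long-chain fatty acids to mitochondria. Cre was thus present in both groups, and its αMHC (*Myh6*) promoter is active in CMs from before birth, so the deletion was not limited to the adult heart.

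Cyclic AMP and cyclic GMP are second messengers. In CMs, cyclic AMP made after adrenergic stimulation activates protein kinase A, which raises calcium release and contraction, and cyclic GMP made by guanylyl cyclases activates protein kinase G. Phosphodiesterases hydrolyse both messengers and keep their pools local. *Pde1c*, *Pde2a*, *Pde3a* and *Pde3b* encode enzymes that accept both nucleotides, *Pde4a*, *Pde4b*, *Pde4d*, *Pde7a* and *Pde8a* encode enzymes specific for cyclic AMP, and *Pde5a* encodes an enzyme specific for cyclic GMP.

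The measured members share 1 catalytic fold, and a short stretch of coding sequence shows both the kinship and the divergence of the families. The class I phosphodiesterase signature was found once in each of the 9 coding sequences, translated from GENCODE transcripts of GRCm38. Its first histidine and its aspartate bind the catalytic metal ions. The stretches are given 5′ to 3′ on the coding strand, 36 bases each, with the codons of the 2 histidines, the aspartate and the closing asparagine or glutamine in capitals, first for the enzymes of both nucleotides, then for those of cyclic AMP, then for that of cyclic GMP.
Pde1c: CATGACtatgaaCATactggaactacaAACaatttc
Pde3a: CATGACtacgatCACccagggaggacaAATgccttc
Pde3b: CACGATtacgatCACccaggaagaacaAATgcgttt
Pde4a: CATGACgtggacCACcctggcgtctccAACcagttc
Pde4b: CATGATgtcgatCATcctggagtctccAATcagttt
Pde4d: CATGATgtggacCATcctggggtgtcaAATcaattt
Pde7a: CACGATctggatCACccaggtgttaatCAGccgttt
Pde8a: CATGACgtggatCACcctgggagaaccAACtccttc
Pde5a: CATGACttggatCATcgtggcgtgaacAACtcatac
The stretch covers residues 836 to 847 of the 1141 of *Pde3a* and residues 797 to 808 of the 1099 of *Pde3b*, and the pair had 30 of 36 bases in common. Across the aligned proteins, *Pde3a* and *Pde3b* were 48.5% identical, the 3 *Pde4* proteins were 70.3% to 74.0% identical to each other, and members of different families were 22.8% to 33.1% identical. *Pde7a* was the member with a glutamine codon (CAG) at the last capital position.

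The transcripts of the members shared little sequence with other genes. Of all 75-base words of the members' transcripts, none was shared with a transcript of another gene except in *Pde3a*, where 667 of 12228 words (5.45%) were. Words were matched on both strands, so an overlap on the opposite strand can enter this count. On the opposite strand *Pde3a* overlaps the gene Gm28523 over 5.82% of its exon bases; Gm28523 itself had values of 1 to 6 in the 6 samples.

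Cpt1b checked the labels. Its normalized counts were 1861, 893 and 1443 in CtrlCre and 211, 353 and 285 in Cpt1bcKO, with no overlap (log2 fold change -2.27, limma adjusted p = 0.00338). The reads on genes, estimated from the steps between low values, were 14800000 to 24500000 per sample, and the mitochondrial transcript mt-Rnr2 took 61.8% to 80.8% of all values, most in Cpt1bcKO sample 3. Sample 1 of each group differed in sex from samples 2 and 3, since *Xist* was 957 and 1080 in those 2 samples and 23 to 78 in the others, while *Ddx3y* was 0 against 576 to 710. All 8 CM markers were lower in Cpt1bcKO (median log2 fold change -0.44). With the group as the only term, 2 had an unadjusted p below 0.05 and 0 an adjusted p below 0.05 (limma). Summed over the 8, values were 486909 to 596098 in CtrlCre and 306469 to 537004 in Cpt1bcKO, and *Ttn* held much of each sum. All 7 fibroblast markers tested were higher (7 with an unadjusted and 2 with an adjusted p below 0.05, median 1.12), with sums of 498 to 785 against 1108 to 1338, and all 7 endothelial markers were higher (1 with an unadjusted and 0 with an adjusted p below 0.05), with sums of 1413 to 3012 against 2704 to 3203. The 8 smooth muscle and pericyte markers summed to 3422 to 4761 against 2782 to 3088, and of 6 tested 3 had a log2 fold change above 0 and 3 below (*Pdgfrb* at 0.0047 had a lower mean in Cpt1bcKO); *Abcc9*, which CMs also express, was the 1 called (log2 fold change -0.80, adjusted p = 0.0123), and without it the sums overlapped, at 583 to 1922 against 1043 to 1509. In these bulk samples fewer cells of a type and less RNA per cell cannot be told apart.

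The deletion of *Cpt1b* went with a lower level of 1 phosphodiesterase, *Pde3a*, and with no other change among the 9 that passed the test. *Pde3a* fell to 0.561 of its CtrlCre level (log2 fold change -0.83, SE 0.143, n = 3 per group, limma adjusted p = 0.0193). *Pde1c*, the other abundant member, was lower in all 3 Cpt1bcKO samples without passing the adjusted test (adjusted p = 0.250). The remaining 7 members overlapped between the groups. Of all genes tested, 1.57% had an adjusted p below 0.05 and 0.906% were also lower in Cpt1bcKO, against 1 of 9 members. An unadjusted p below 0.05, the threshold the study used, was reached by 2 of 9 members, both lower, where 13.9% of all genes reached it, 7.22% lower and 6.66% higher. Groups did not overlap in 2 of 9 members, both lower, against 18.7% of all genes in either direction and 9.6% lower. The 2 non-overlapping members are near the background in share, and with 9 genes the counts describe single genes and not the family. The median log2 fold change of the 9 was -0.20, beside -0.0013 over all genes tested.

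**Figure D1:**
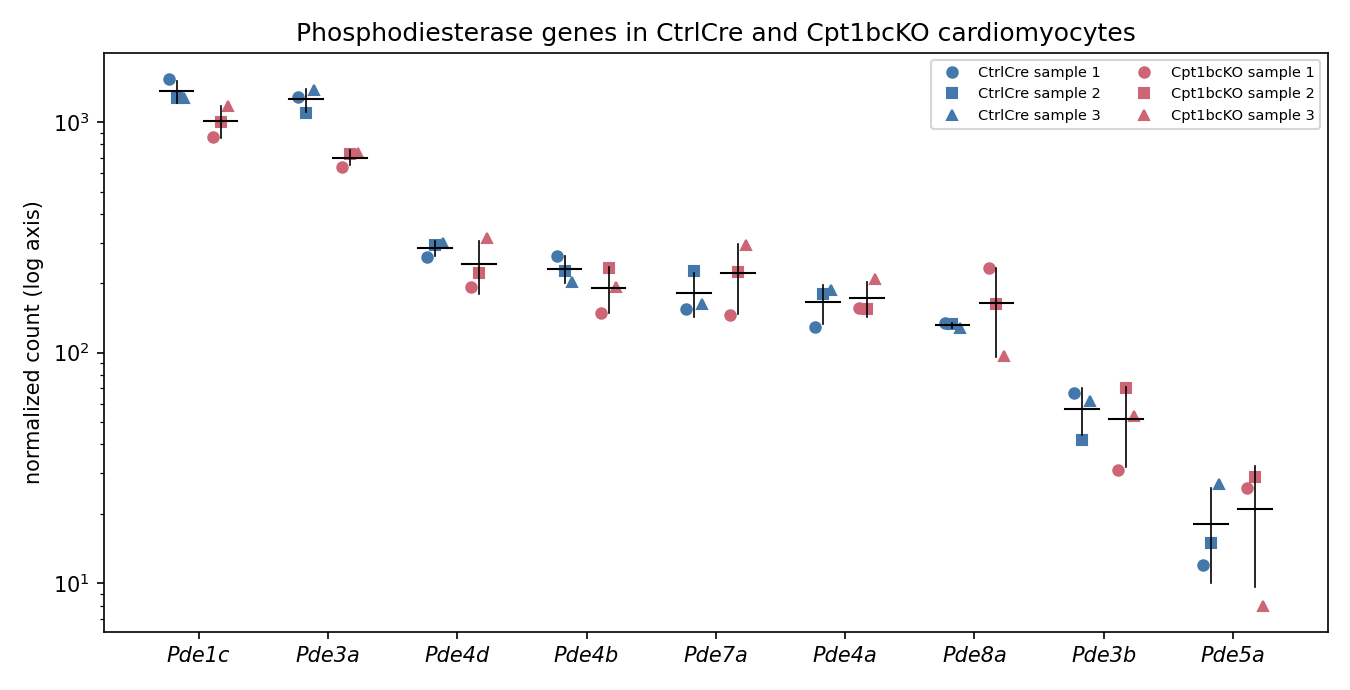
Normalized count of each of the 9 measured phosphodiesterase genes (log axis) in the 3 CtrlCre (blue) and 3 Cpt1bcKO (red) samples, with symbols for the sample number, horizontal lines at the group means and vertical lines of 1 SD. *Pde3a* sits between 1098 and 1380 in CtrlCre and between 641 and 734 in Cpt1bcKO.

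*Pde3a* encodes the main PDE3 of the heart, a cyclic AMP hydrolase that cyclic GMP inhibits and that works beside phospholamban at the sarcoplasmic reticulum; inhibitors such as milrinone act on it. The gene (ENSMUSG00000041741) lies at chr6:141249269-141507448 on the plus strand of GRCm38. Its normalized counts were 1282, 1098 and 1380 in CtrlCre (1253.3 ± 143 SD) and 641, 729 and 734 in Cpt1bcKO (701.3 ± 52.3 SD). Every Cpt1bcKO sample was below every CtrlCre sample, and the spread within each group was small beside the gap. The mean was 44% lower, the 95% interval of the log2 fold change ran from -1.15 to -0.51, and the unadjusted p of 0.00015 ranked 88 of 11364 genes. Some 567 to 1499 reads stood behind each value, so that counting error alone was 2.58% to 4.2%.

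The size of this difference was steadier than its call. Over 16 alternative settings the log2 fold change of *Pde3a* stayed between -0.93 and -0.72, and 12 of them kept the adjusted p below 0.05. Leaving out CtrlCre sample 1 gave an adjusted p of 0.0628, leaving out CtrlCre sample 3 gave 0.104, and leaving out Cpt1bcKO sample 2 gave 0.0987 (limma, n = 2 in the reduced group). With 1 prior variance for all genes it was 0.126. In samples 2 and 3 alone, which are of 1 sex, it was 0.0315, and with sex as a term in the fit, an alternative chosen after seeing the data, it was 0.0034. The 8 CM markers had log2 fold changes of -0.22 (*Tnnt2*) to -1.0 (*Tnni3*), with a median of -0.44 and sums that overlapped between the groups. *Ttn* held much of these sums, at 229054 to 395949 in CtrlCre and 151007 to 360030 in Cpt1bcKO. *Myh6*, *Tnni3* and *Pln* did not overlap between the groups, and the other CM markers did. Only *Tnni3* and *Pln* (-0.85) had an unadjusted p below 0.05 (limma) and fell as far as *Pde3a*. No CM marker had an adjusted p below 0.05 with the group as the only term. Under a block for the sample number, the limma adjusted p was 0.00105 for *Tnni3*, 0.00225 for *Pln* and 0.00334 for *Pde3a*. The other CM markers stayed above 0.05 in that fit. The part of these markers in the result was not tested.

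*Pde3b*, the other PDE3 gene (chr7:114415281-114539251, plus strand), is best known from adipocytes, liver and other insulin-responsive tissues, where insulin activates its enzyme. Its normalized counts were 67, 42 and 62 in CtrlCre and 31, 70 and 53 in Cpt1bcKO. The groups overlapped, and the lowest and the highest value both came from Cpt1bcKO. The log2 fold change was -0.20 with a 95% interval of -0.91 to 0.52, so a difference as large as that of *Pde3a* was within its interval. With 41 to 71 reads per sample, counting error alone was 11.9% to 15.6%. The sign was not stable, since samples 2 and 3 alone gave 0.25.

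*Pde1c* encodes a phosphodiesterase that calcium and calmodulin stimulate (chr6:56069804-56569103, minus strand). Its normalized counts were 1533, 1268 and 1276 in CtrlCre (1359 ± 151 SD) and 863, 1001 and 1178 in Cpt1bcKO (1014 ± 158 SD). The groups did not overlap, but the highest Cpt1bcKO value came close to the lowest CtrlCre value. The log2 fold change was -0.43 (SE 0.157, 95% interval -0.78 to -0.079), with an unadjusted p of 0.0208 and a limma adjusted p of 0.250. The unadjusted p was 0.05 or more in 6 of 16 alternatives: 0.0734 without CtrlCre sample 1, 0.0654 without Cpt1bcKO sample 1, 0.0555 without Cpt1bcKO sample 2, 0.065 with 1 prior variance, 0.0583 with values scaled without mitochondrial and rRNA genes, and 0.12 in samples 2 and 3 alone, where the log2 fold change was -0.23.

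**Figure D2:**
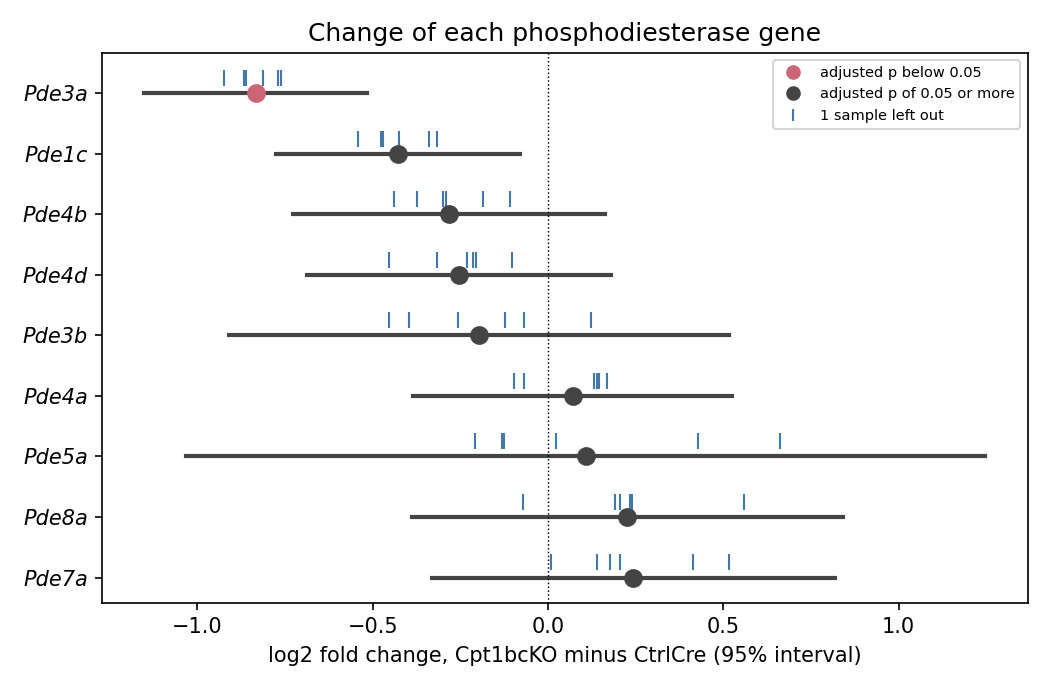
Log2 fold change (Cpt1bcKO minus CtrlCre) of the 9 members with 95% intervals; blue ticks above each line are the values with 1 of the 6 samples left out, and red marks an adjusted p below 0.05. *Pde3a* (-0.83) and *Pde1c* (-0.43) have intervals below 0, and the other 7 intervals include 0.

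The 5 genes of cyclic AMP-specific enzymes gave no call. *Pde4a*, *Pde4b* and *Pde4d* encode the rolipram-sensitive enzymes that anchoring proteins place at receptors and calcium channels. *Pde4d* (chr13:108654177-109953461, plus strand), whose enzyme has been found with the ryanodine receptor, had normalized counts of 260, 293 and 300 in CtrlCre and 193, 222 and 314 in Cpt1bcKO. Samples 1 and 2 of Cpt1bcKO were below the CtrlCre range and sample 3 was above it. The log2 fold change was -0.25 with a 95% interval of -0.69 to 0.18 (limma adjusted p = 0.610), and it was -0.10 without Cpt1bcKO sample 1 and -0.45 without Cpt1bcKO sample 3.

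*Pde4b* (chr4:102087543-102607259, plus strand), whose enzyme acts near L-type calcium channels, had normalized counts of 263, 227 and 202 in CtrlCre and 148, 234 and 193 in Cpt1bcKO. The groups overlapped, with a log2 fold change of -0.28 and a 95% interval of -0.73 to 0.16, and it was -0.011 in samples 2 and 3 alone. *Pde4a* (chr9:21165714-21213248, plus strand) had normalized counts of 129, 180 and 187 in CtrlCre and 157, 154 and 208 in Cpt1bcKO. These ranges lay over each other, and the log2 fold change of 0.07 had a 95% interval of -0.38 to 0.52. The table counts genes, not transcripts, and the annotation lists 12 protein-coding transcripts for *Pde4d*, 9 for *Pde4b* and 3 for *Pde4a*, so changes between isoforms could not be seen.

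*Pde7a* and *Pde8a* encode high-affinity cyclic AMP hydrolases that rolipram leaves active. *Pde7a* (chr3:19223108-19311322, minus strand) had normalized counts of 155, 227 and 163 in CtrlCre and 145, 224 and 294 in Cpt1bcKO, with a log2 fold change of 0.24 and a 95% interval of -0.33 to 0.82. Its lowest and highest values were both Cpt1bcKO samples, and the log2 fold change was 0.0099 without Cpt1bcKO sample 3 and 0.52 (unadjusted p = 0.0377, limma adjusted p = 0.218) without Cpt1bcKO sample 1. *Pde8a* (chr7:81213596-81334533, plus strand) had normalized counts of 134, 133 and 128 in CtrlCre and 233, 162 and 97 in Cpt1bcKO. The 3 CtrlCre values were almost equal (coefficient of variation 2.44%), while the Cpt1bcKO values lay on both sides of them (coefficient of variation 41.5%). The log2 fold change of 0.23 had a 95% interval of -0.39 to 0.84 (limma adjusted p = 0.768), and it was -0.06 in samples 2 and 3 alone.

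Within Cpt1bcKO the sample with the most *Pde8a* (233) had the least *Pde7a* (145), and the sample with the least *Pde8a* (97) had the most *Pde7a* (294). This is an order of 3 samples and not particular to *Pde7a*. *Pde1c*, *Pde3a* and *Pde4d* were also lowest in Cpt1bcKO sample 1 and highest in Cpt1bcKO sample 3. The share of mt-Rnr2 ran in the same order, at 61.8% in Cpt1bcKO sample 1 and 80.8% in Cpt1bcKO sample 3. Cpt1bcKO sample 1 also differed in sex from the others. The part of mt-Rnr2 and of sex in these values was not tested. Estimated reads for *Pde8a* were 75 to 342 per sample, with a counting error of 5.41% to 11.5%.

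*Pde5a* encodes the cyclic GMP-specific enzyme that sildenafil inhibits, and is known mainly from smooth muscle, whose markers are given above. The gene (chr3:122728947-122859374, plus strand) was the lowest of the 9, with normalized counts of 12, 15 and 27 in CtrlCre and 26, 29 and 8 in Cpt1bcKO. The groups overlapped, and no more than 6 to 38 reads stood behind each value (counting error 16.2% to 40.2%). The log2 fold change of 0.11 had a 95% interval of -1.03 to 1.25, which holds both a doubling and a halving. The samples of a group spread by 44.1% in CtrlCre and 54.1% in Cpt1bcKO (coefficient of variation).

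Levels can be set side by side between genes only per length. Per kilobase (kb) of annotated exon, the order of the mean normalized count in CtrlCre was *Pde3a* (98.4 ± 11.2 SD), *Pde1c* (67.7 ± 7.51), *Pde8a* (32.6 ± 0.795), *Pde4d* (23.7 ± 1.78), *Pde7a* (23.4 ± 5.09), *Pde4b* (21.8 ± 2.9), *Pde4a* (21.6 ± 4.14), *Pde3b* (6.25 ± 1.45) and *Pde5a* (1.83 ± 0.807), each with n = 3. The 4 neighbours *Pde4d*, *Pde7a*, *Pde4b* and *Pde4a* did not differ beyond their spread. On this scale *Pde3a* (55.1 ± 4.11) and *Pde1c* (50.5 ± 7.87) did not differ beyond their spread in Cpt1bcKO, and *Pde8a* (40.5 ± 16.8) overlapped both. The order depends on the length used. Per kb of the longest annotated transcript, *Pde1c* came first in CtrlCre at 155 ± 17.2, before *Pde3a* (102 ± 11.6), *Pde4d* (67.6 ± 5.08) and *Pde4b* (53.6 ± 7.12), and *Pde8a* (34.6 ± 0.845) fell from rank 3 to rank 6. In Cpt1bcKO *Pde1c* (116 ± 18.0) then stood above *Pde3a* (57.0 ± 4.25) beyond their spread, and *Pde4d* (57.8 ± 15.0) took rank 2 with values that overlapped those of *Pde3a*.

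The make-up of the measured pool followed from these values. *Pde3a* made up 33.3%, 30.0% and 35.8% of the summed level per kb of the 9 genes in the CtrlCre samples and 22.2%, 23.1% and 22.5% in the Cpt1bcKO samples. The ranges were apart, and with the longest transcript as length they were also apart, at 18.8% to 23.0% against 13.6% to 14.6%. The share of *Pde1c* was 22.8% ± 2.24 in CtrlCre and 20.7% ± 1.99 in Cpt1bcKO (SD, n = 3), a difference within the spread. The share of *Pde8a* was 11% ± 0.499 against 17% ± 8.08, and that of *Pde7a* was 7.92% ± 1.98 against 11.6% ± 3.26. With the longest transcript as length, the mean shares were 7.10% against 11.15% for *Pde8a* and 5.93% against 8.61% for *Pde7a*.

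Grouped by substrate, the cyclic AMP-specific genes held 38.6%, 45.8% and 40.0% of the pool in CtrlCre and 56.1%, 52.4% and 52.1% in Cpt1bcKO. Genes of both nucleotides, without *Pde2a*, held 61.0%, 53.6% and 59.0% against 42.7%, 46.4% and 47.6%, and *Pde5a* held 0.317% to 1.19% in all samples. These shares must add up to the whole, so they are not independent of the lower *Pde3a*. The normalized counts of the 5 cyclic AMP-specific genes added up to 941, 1060 and 980 in CtrlCre and 876, 996 and 1106 in Cpt1bcKO, ranges that overlapped. The summed level per kb of all 9 genes was 302, 287 and 303 in CtrlCre and 226, 247 and 256 in Cpt1bcKO.

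**Figure D3:**
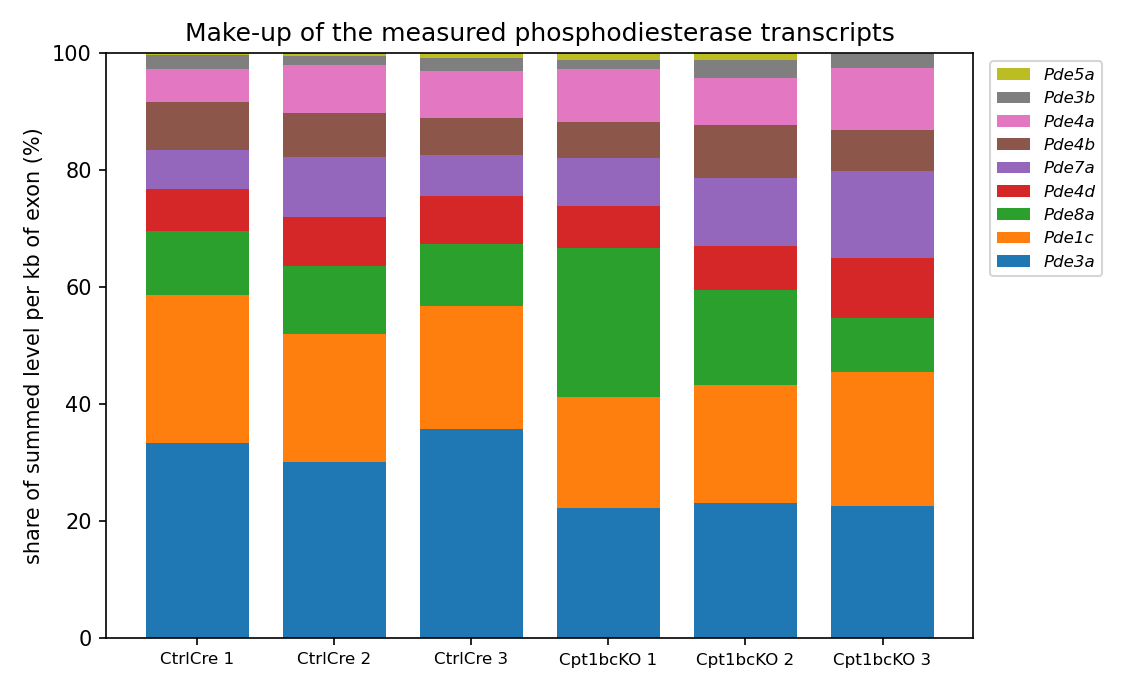
Share (%) of each of the 9 measured members in their summed level per kb of exon, 1 bar per sample. The lowest segment, *Pde3a*, is 30.0% to 35.8% in CtrlCre and 22.2% to 23.1% in Cpt1bcKO, while the *Pde8a* segment varies from 9.35% to 25.5% among the Cpt1bcKO samples.

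Promoter sequences (RefSeq, GRCm38.p6, 250 bases before to 50 bases after a start site) were matched for 6 of the measured members with 13 windows, and *Pde3a*, *Pde3b* and *Pde7a* had no entry. The cyclic AMP response element TGACGTCA, searched on both strands, was in 0 of the 13 windows in 1.79% of all 32851 windows and in 3.19% of the 10703 windows of genes tested. Its core TGACG, which the full element also contains, was in 3 of the 13 windows (1 each of *Pde4a*, *Pde4b* and *Pde8a*), or 23.1%, in 20.8% of all windows and in 31.7% of those of genes tested. Missing letters in these windows say nothing about binding elsewhere.

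The genes around the members, in 9 lists of cyclic nucleotide signalling, gave 0 calls at an adjusted p below 0.05 in limma with the group as the only term and all 6 samples, and 5 of 65 (*Pkia*, *Prkar1a*, *Pde4dip*, *Npr1* and *Calm2*) once sex was a term in the fit, where 5.05% of all genes were called. Of 87 genes listed, 65 were tested: 33 had a log2 fold change above 0 and 32 below, 14 (21.5%) had an unadjusted p below 0.05, and the median was 0.01. These 14, *Nos1* among them, were 6 higher (9.23%) and 8 lower (12.3%), beside 13.9%, 6.66% and 7.22% of all genes tested, the background for the counts of each list below. Directions follow the mean of log2 values, and in 1 gene, *Gucy1a3*, the mean of the normalized counts differed the other way. Among 5 other phosphodiesterase genes tested, *Pde7b*, a cyclic AMP hydrolase related to *Pde7a*, had normalized counts of 104, 126 and 121 in CtrlCre and 90, 87 and 83 in Cpt1bcKO (log2 fold change -0.42, unadjusted p = 0.0399, limma adjusted p = 0.329). The groups did not overlap. *Pde1a* (0.78) and *Pde6d* (-0.35) overlapped between the groups.

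The list for cyclic AMP synthesis held adenylyl cyclases and the G proteins that drive or restrain them, and of its 10 tested genes 7 were lower and 1 reached an unadjusted p below 0.05. The 7 were 3 of 5 adenylyl cyclases, 1 of 2 stimulatory G protein subunits (*Gnas*) and all 3 inhibitory subunits (*Gnai2*, *Gnai3* and *Gnao1*), so the tally mixes opposite roles. *Adcy5*, a main adenylyl cyclase of the CM, had normalized counts of 346, 393 and 363 in CtrlCre and 216, 239 and 361 in Cpt1bcKO (log2 fold change -0.47, limma adjusted p = 0.331). The log2 fold changes of *Adcy9* and of *Adcy7*, low at 8 to 40, were -0.44 and 0.99 (adjusted p = 0.361 and 0.371). In these 3 the groups overlapped. *Adcy6*, the other main cyclase of the CM, named after its values were seen, had 566, 620 and 629 in CtrlCre and 351, 536 and 529 in Cpt1bcKO with no overlap (log2 fold change -0.38, adjusted p = 0.385).

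The list for cyclic GMP synthesis held 5 guanylyl cyclase genes, 3 nitric oxide synthases and *Npr3*, the natriuretic peptide clearance receptor, which makes no cyclic GMP. Of the 9, 8 had a log2 fold change above 0, *Gucy1a3* (0.19) among them with a lower mean in Cpt1bcKO, and 2 reached an unadjusted p below 0.05, with a median log2 fold change of 0.62, which is the value of *Npr3*. *Npr1*, a natriuretic peptide receptor with guanylyl cyclase activity, had normalized counts of 16, 25 and 45 in CtrlCre and 48, 68 and 62 in Cpt1bcKO (log2 fold change 1.13, limma adjusted p = 0.184, or 0.0477 with sex as a term). *Npr2*, the other receptor of that kind, had 114, 126 and 83 in CtrlCre and 95, 107 and 111 in Cpt1bcKO, which overlapped (log2 fold change -0.026). *Nos1*, the neuronal nitric oxide synthase, was listed at 0, 0 and 6 in CtrlCre and at 12, 12 and 18 in Cpt1bcKO (adjusted p = 0.153). It passed the filter on low values through Cpt1bcKO alone, so its place in these counts was partly fixed by the filter. Without it, 7 of 8 genes of the list were above 0, 1 reached an unadjusted p below 0.05 and the median was 0.50, and over all lists 13 of 64 (20.3%) reached it, 5 of them higher (7.81%). For *Nos3*, the endothelial nitric oxide synthase, it was 0.82 on the log2 scale (adjusted p = 0.440). Natriuretic peptide and nitric oxide pathways are also used by endothelial cells and fibroblasts. As given above, all 7 fibroblast markers tested were higher with an unadjusted p below 0.05 (limma). Only 1 of 7 endothelial markers reached that p, and the endothelial sums overlapped between the groups. The part of these cells was not tested.

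Among 12 genes of cyclic AMP effectors, 4 reached an unadjusted p below 0.05. *Pkia*, an inhibitor of the kinase A catalytic subunit, came nearest to a call, with normalized counts of 1433, 1268 and 1445 in CtrlCre and 1064, 666 and 628 in Cpt1bcKO (log2 fold change -0.85, limma adjusted p = 0.0669, or 0.00649 with sex as a term). *Prkar1a*, a regulatory subunit of kinase A, had 3182, 2907 and 3394 in CtrlCre and 4173, 4172 and 4290 in Cpt1bcKO (log2 fold change 0.42, adjusted p = 0.182, or 0.0446 with sex as a term). Neither gene overlapped between the groups. *Pkig*, another kinase A inhibitor, had a log2 fold change of -1.15 with overlapping groups (adjusted p = 0.210), and without CtrlCre sample 2, its lowest CtrlCre value, one of -1.67 (adjusted p = 0.0336). Without Cpt1bcKO sample 1 the value of *Pkia* was -1.09 (adjusted p = 0.00365), and in samples 2 and 3 alone it was -1.06 (adjusted p = 0.00459). With a block for the sample number the adjusted p was 0.00814 for *Pkia*, 0.0231 for *Pkig* and 0.0415 for *Prkar1a*. Both tested genes of cyclic GMP effectors overlapped, with log2 fold changes of 0.28 for *Prkg1*, protein kinase G, and 0.65 for *Mrvi1*, a kinase G substrate.

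Anchors and partners place phosphodiesterases near their targets. Of 11 A-kinase anchor genes, 2 were higher and 1 lower at an unadjusted p below 0.05. *Akap13* had normalized counts of 1055, 1047 and 1021 in CtrlCre and 618, 760 and 965 in Cpt1bcKO (log2 fold change -0.44, limma adjusted p = 0.277), while *Akap2* (0.45, adjusted p = 0.281) and *Akap12* (0.55, adjusted p = 0.347) were higher in all 3 Cpt1bcKO samples. Of 8 partner genes, *Pde4dip*, which encodes myomegalin, a large protein that binds PDE4D, was abundant, at 10350, 10319 and 9824 in CtrlCre and 7159, 7801 and 7925 in Cpt1bcKO (log2 fold change -0.42, adjusted p = 0.205, or 0.0467 with sex as a term), with no overlap. *Calm2* (-0.49, adjusted p = 0.319, or 0.0482 with sex as a term) and *Calm3* (-0.26, adjusted p = 0.518), which encode calmodulin, the activator of PDE1, overlapped between the groups.

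The last 2 lists held few genes. The exporters *Abcc5* and *Abcc4* had log2 fold changes of 0.57 and 0.10. Of 6 genes of cyclic AMP-responsive transcription, *Crtc1*, a coactivator of CREB, was higher in all 3 Cpt1bcKO samples at 39 to 48 against 25 to 36 (log2 fold change 0.61, limma adjusted p = 0.342), while *Creb1* (-0.35) and *Atf1* (-0.32) overlapped.

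**Figure D4:**
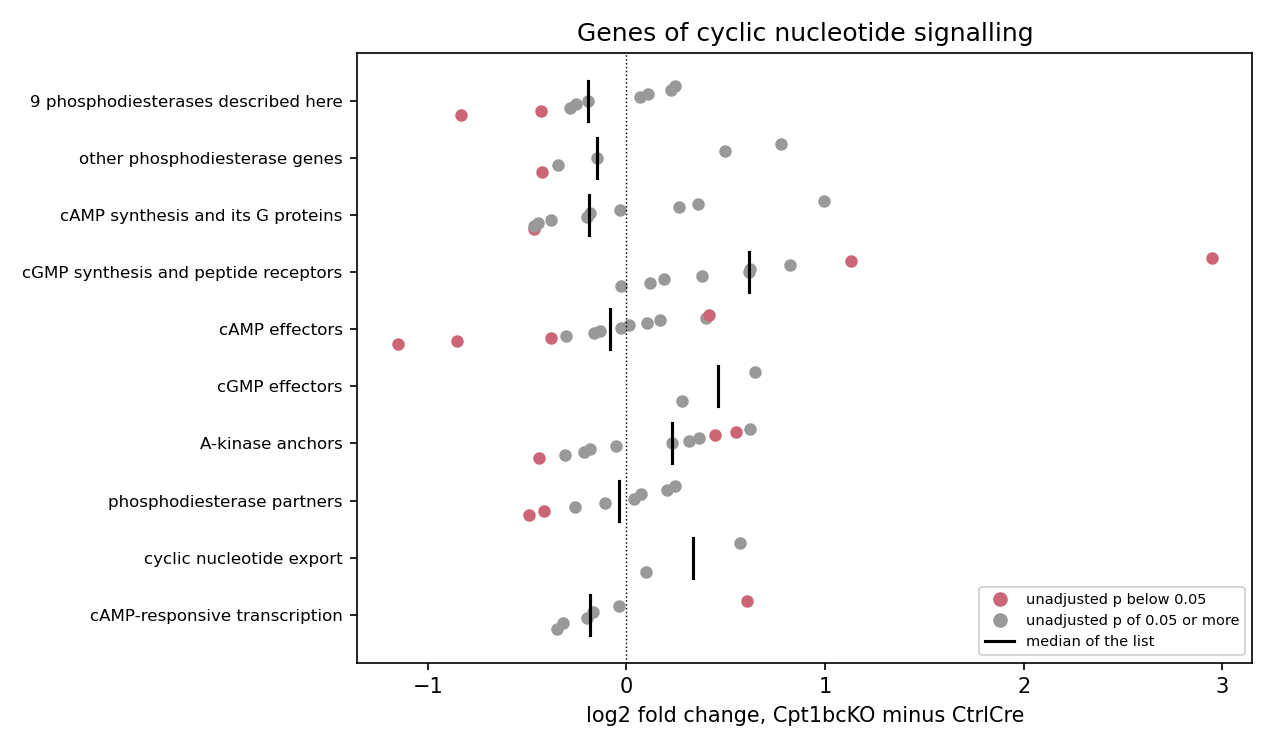
Log2 fold change (Cpt1bcKO minus CtrlCre) of the 9 members and of the 65 tested genes of the 9 signalling lists, 1 point per gene, red for an unadjusted p below 0.05, with a black line at each list's median. The list for cyclic GMP synthesis, which includes *Npr3*, has the highest median (0.62), and no gene of the 9 lists had an adjusted p below 0.05 in the fit plotted here, which has the group as its only term.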

How the data were processed

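RNA of 3 CtrlCre and 3 Cpt1bcKO CM samples had been sequenced after SMARTer Stranded Total RNA library preparation. Per the submitters' processing notes, FastQC 0.11.8, Trimmomatic 0.36, STAR 2.5.4b on mm10 (GRCm38.p5), featureCounts 1.6.0 and DESeq2 1.14.1 were used; the annotation release and strand setting are not given in the sources used here. The deposited score of each gene is a DESeq2-normalized count that the authors rounded to a whole number, so it is no raw count and no count model was run. The table also held the authors' means, fold changes and p-values, which were not used. The worth of 1 read in each sample was inferred from the gaps between low values, and counting error covers those reads only. The correlation of the inferred with the observed spacing ran from 0.502 (Cpt1bcKO sample 2) to 0.91 (Cpt1bcKO sample 3). All read numbers and counting errors given are therefore estimates.

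Members and gene lists were chosen with earlier results of these data known. Values were taken as log2(value + 1), where the added 1 weighs most in low genes. Fold changes of low genes on this scale can differ in either direction from the ratio of mean counts. For Nos1 the fold was 7.71, with means of 2 in CtrlCre and 14 in Cpt1bcKO. Genes with at least 10 in at least 3 samples were kept (11364 of 16448) and fitted in limma 3.58.1 (R 4.3.3; lmFit, eBayes with trend), 2-sided, with Benjamini-Hochberg adjustment over all genes tested. Named were all members, Cpt1b and, in each list, genes with an adjusted p below 0.05 or else up to 3 with the lowest p. Adcy6, Npr2, Npr3, Gucy1a3, the G protein genes, and the marker, neighbour and sex-linked genes given by name stand outside this rule and were chosen after their values were seen. The labels do not say whether each sample came from 1 mouse. For the Gene Ontology terms of its overlapping differentially expressed genes the paper gives n = 3 mice each. The p-values measure the spread between these samples. On simulated data the fit recovered 63 of 95 genes changed by 1 log2 unit and 96 of 96 changed by 2, and called 8 of 10977 unchanged genes. The simulated counts were independent, with an assumed spread and no difference in sex or mt-Rnr2. These figures check the fit and do not give its performance on the real samples. Lengths, transcripts and exon overlaps came from GENCODE models of GRCm38; gene coordinates are the deposited table's. Python 3.11.15 and Biopython 1.88 were used for sequences, with pairwise global alignment of translated coding sequences. Alternatives were other pseudocounts (0.5 and 5), filters, scalings, a single prior variance, a replicate block, samples 2 and 3 only, each sample left out and, chosen after seeing the data, sex (read from Xist and Ddx3y) as a term.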

Additional observations from a re-analysis of the deposited data

How the results depend on the processing

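Of 175 log2 fold changes recomputed for the members, Cpt1b and Pde4dip under the alternatives, 158 kept their direction and side of the threshold, and 11 changed sign, all of them values that were not called. With samples 2 and 3 of both groups only, the log2 fold change was 0.25 for Pde3b, -0.035 for Pde4a, -0.37 for Pde5a and -0.057 for Pde8a. With 1 sample left out it ranged from -0.45 to 0.12 for Pde3b, -0.10 to 0.17 for Pde4a, -0.21 to 0.66 for Pde5a and -0.070 to 0.56 for Pde8a. The other 5 members kept their sign in the alternatives run, with ranges of -0.44 to -0.011 for Pde4b, -0.45 to -0.10 for Pde4d and 0.0099 to 0.52 for Pde7a, and 8 members were called in none. The count of members with an adjusted p below 0.05 (1) was 0 with 1 prior variance, which also gave Cpt1b an adjusted p of 0.0562, and 0 to 1 with a sample left out. The count with an unadjusted p below 0.05 (2) was 1 with 1 prior variance, 1 with samples 2 and 3 only, 1 with values scaled to the total without mitochondrial and rRNA genes, and 1 to 4 with a sample left out. The 4 came without Cpt1bcKO 3, where 12% of all genes reached that p, and the 2 added were Pde4d (lower, unadjusted p = 0.0276) and Pde8a (higher, 0.025). Where the count was 1, Pde1c was the member lost; without Cpt1bcKO 1 the count stayed at 2, with Pde1c lost and Pde7a gained (higher, 0.0377). That scaling put the median over all genes at 0.11 on the log2 scale and moved the unadjusted calls from 757 higher and 821 lower to 1220 higher and 500 lower. Requiring 10 in every sample left Pde5a untested. The count of pathway genes with an unadjusted p below 0.05 (14) was 8 with 1 prior variance, 23 with the replicate block, 20 with sex as a term and 6 to 16 with a sample left out, where 13%, 20.8%, 20.8% and 8.82% to 19.9% of all genes reached that p (13.9% without these changes). Apart from what the construction of an alternative shows, the cause was not tested. With the longest transcript as length, shares in CtrlCre and Cpt1bcKO moved to 31.7% and 28.8% for Pde1c and 20.9% and 14.3% for Pde3a. They moved to 11% and 11.1% for Pde4b and 13.9% and 14.3% for Pde4d. In CtrlCre alone they moved to 5.93% for Pde7a and 7.10% for Pde8a. These 10 shares moved by 1 SD or more. The other 62 of 72 share values moved by less, but most were means with 1 of 3 samples left out. Such a mean cannot move by 1 SD of the same 3 values, so only the change of length could move a share that far.

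The groups share replicate numbers, but same-numbered samples deviated together with correlations across genes of 0.376, 0.255 and 0.0684, and CtrlCre 3 correlated best with Cpt1bcKO 2 (0.119), so the numbers were not taken to pair the samples. Number 1 is also the other sex in both groups. Sex as a term, chosen after seeing the data, left the members' calls at 1 and 2, gave 574 calls over all genes, and gave adjusted calls to 5 pathway genes. Single pathway genes were also called without CtrlCre 2 (Pkig), without Cpt1bcKO 1 and with samples 2 and 3 only (Pkia in both). With the replicate block, the pairing left 1 member with an adjusted p below 0.05 and 2 with an unadjusted p below 0.05, and raised the calls over all genes from 178 to 603. Among the pathway genes, 3 then had an adjusted p below 0.05, where 0 did without the block: Pkia (0.00814), Pkig (0.0231) and Prkar1a (0.0415). Counting error is largest for Pde5a and Pde3b.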
